A study of Mus musculus with 101 samples.

Results

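A set of 10 neighbouring genes of proximal mouse chromosome 8 was followed through every tumour: 10 of the 43513 gene symbols measured, or 10 of the 1638 that could be placed on chromosome 8. In chromosomal order they are Efnb2, Irs2, Col4a1, Col4a2, Ing1, Cul4a, Lamp1, Grtp1, Tfdp1 and Gas6. They were picked by name because gains of this stretch had been seen in the same tumours, by genotype and by histology. Their gain calls and levels by genotype and histology are therefore given as a description, without a test. How the gain combines with loss of the distal chromosome was also part of the choice and is described. What the choice did not use is how the level of the stretch relates, tumour by tumour, to alteration on the other chromosomes, and this relation was tested.

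Genomic DNA of 98 mammary tumours and 3 spleens had been sequenced at low coverage to measure copy number. By label, 18 tumours were KP, 31 were KB1P, 24 were KB1(L1363P)P and 25 were KB2P, and the spleens carry the labels KP, KB1P and KB1(L1363P)P. The study asked how tumours with a Brca1 missense variant in the region that binds Palb2 compare with those of the other models. The labels give these abbreviations and no age, strain or list of alleles. In the usual naming of these models, Cre recombinase is driven by the keratin 14 promoter, active in epithelial cells, and removes floxed Trp53 in all 4, together with Brca1 in KB1P and Brca2 in KB2P. KB1(L1363P)P carries the Brca1 missense variant in its name. Of the KB1P tumours, 10 are titled KB1PM, a name the labels do not explain, and 1 further KB1P tumour has conflicting names in its labels. Histology moved with genotype: adenocarcinomas made up 6 of 18 KP, 29 of 31 KB1P, 3 of 24 KB1(L1363P)P and 25 of 25 KB2P tumours. The others were carcinosarcomas or sarcomatoid tumours, and the labelled epithelial share was 0% in all 23 sarcomatoid tumours and 100% in all 63 adenocarcinomas. A gain carried by part of the cells and a smaller gain carried by all of them cannot be told apart in bulk DNA.

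Copy-number gain raises the dose of every gene on the gained stretch, and a gene whose extra dose favours growth can carry its neighbours along. The same 10 genes lie together near the end of the long arm of human chromosome 13, a region gained in some breast cancers. Cul4a is the scaffold of a ubiquitin ligase that binds Ddb1 and marks cell cycle and DNA repair proteins for destruction. Tfdp1 is the partner through which E2F factors bind DNA, and Gas6 is the secreted ligand of the receptors Axl, Tyro3 and Mertk. Lamp1 is a glycoprotein of the lysosomal membrane, and Grtp1 belongs to the TBC domain proteins. Irs2 is an adaptor of the insulin and IGF1 receptors, and Efnb2 is a membrane-bound ligand of Eph receptors. Col4a1 and Col4a2 encode the chains of the main collagen of basement membranes, and Ing1 is a chromatin reader that acts with the Sin3 repressor complex.

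In GRCm38.p6 the 10 genes span 4.88 Mb, from 8617235 to 13494535 of chromosome 8, with 74 placed genes, 39 of them protein-coding, inside the span. Efnb2 stands alone at 8617235 to 8661242. A middle group follows, with Irs2 at 10984681 to 11008929, Col4a1 at 11198423 to 11312889, Col4a2 at 11312805 to 11449287 and Ing1 at 11555762 to 11563251. Cul4a lies at 13105623 to 13147940. Lamp1 (13159161 to 13175338) and Grtp1 (13176869 to 13200766) come directly after it, and Tfdp1 (13338725 to 13378448) and Gas6 (13465374 to 13494535) close the stretch. The next placed neighbours outside are the non-coding Gm31463 before Efnb2 and 1700029H14Rik after Gas6. Col4a1 and Col4a2 are the only pair that starts from the same place, on opposite strands. Their RefSeq start sites are 21 bases apart, and the short stretch that holds both is shown because copy number read in bins of 20 kb cannot separate the starts of these 2 genes. It reads as follows on the plus strand of chr8:11312801-11312830, with the bases from one start site to the other in capitals.
Col4a1 and Col4a2 start sites: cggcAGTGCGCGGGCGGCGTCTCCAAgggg

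Each gene has a segment value, the log2 ratio of the stretch of the genome it lies in, and a copy score, a whole number in which 2 is neutral. A score above 2 is called a gain and a score below 2 a loss. Among the 980 values of the 10 genes in tumours, the lowest segment value with a gain was 0.323 and the highest with a loss was -0.446. In the 3 spleens all 10 genes had segment values of 0.00, with a score of 2. The scatter of the unsegmented log2 ratios around the segments was 0.08 to 0.20 in tumours, and the sequencing depth is unknown. KB2P replicates 10 and 12 stand apart as a pair. Their segment values correlated at r = 0.99 over all genes, whereas the next most alike pair of KB2P tumours reached 0.47, and most of their segment changes on proximal chromosome 8 fell at the same genes although they belong to different library series (3196 and 3499). The main results that rest on them are also given without them. In KB1(L1363P)P, 3 pairs of tumours share a mouse number in their titles.

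Cul4a was gained in 21 of 98 tumours and lost in 6. By genotype, gain was called in 3 of 18 KP tumours (16.7%, exact Clopper-Pearson 95% interval 3.58% to 41.4%), 11 of 31 KB1P tumours (35.5%, 19.2% to 54.6%), 0 of 24 KB1(L1363P)P tumours (0% to 14.2%; a limit of 3 tumours for a count of 0 would be 12.5%) and 7 of 25 KB2P tumours (28%, 12.1% to 49.4%). These intervals cover counting error only. Adenocarcinomas held 20 of the 21 gains, out of 63 adenocarcinomas. The exception was KP replicate 10, a sarcomatoid tumour in which the whole of chromosome 8 was gained at 0.33. None of the 12 carcinosarcomas had a gain call at Cul4a. Because 21 of the 24 KB1(L1363P)P tumours were not adenocarcinomas, genotype and histology cannot be told apart for its count of 0.

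The segment value of Cul4a ranged in KP from -0.20 through a median of 0.05 to 2.88, and averaged 0.25 ± 0.68 (SD, n = 18). In KB1P it ranged from -0.94 through 0.25 to 2.19, with a mean of 0.27 ± 0.63 (SD, n = 31). KB1(L1363P)P tumours stayed between -0.78 and 0.18, with a median of 0.00 and a mean of -0.03 ± 0.17 (SD, n = 24). In KB2P the values ran from -0.77 through 0.17 to 2.48, with a mean of 0.28 ± 0.72 (SD, n = 25). The 4 ranges overlap, and the means of KP, KB1P and KB2P differ by far less than the SD within each genotype. The KP and KB2P means rest on few tumours: without KP replicate 7 the KP mean was 0.10 ± 0.17 (SD, n = 17), and without replicates 10 and 12 the KB2P mean was 0.09 ± 0.33 (SD, n = 23). In the KB1(L1363P)P tumours the upper end was missing: their highest value, 0.18 in the carcinosarcoma replicate 11, lay under every gain call. This is not particular to the stretch, since the median symbol also had 0 gains in KB1(L1363P)P. The median percent of placed genes off chromosome 8 with a score other than 2 was 4.97% there. It was 0.852% in KP, 36.3% in KB1P and 29.4% in KB2P. Over all genotypes, 0 of 12 carcinosarcomas and 1 of 23 sarcomatoid tumours had a gain call at Cul4a, so genotype and histology cannot be told apart here either. Just inside the gain call stood KB1P replicate 13 at 0.323 and just outside it KB1P replicates 8 at 0.321 and 29 at 0.319.

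**Figure D1:**
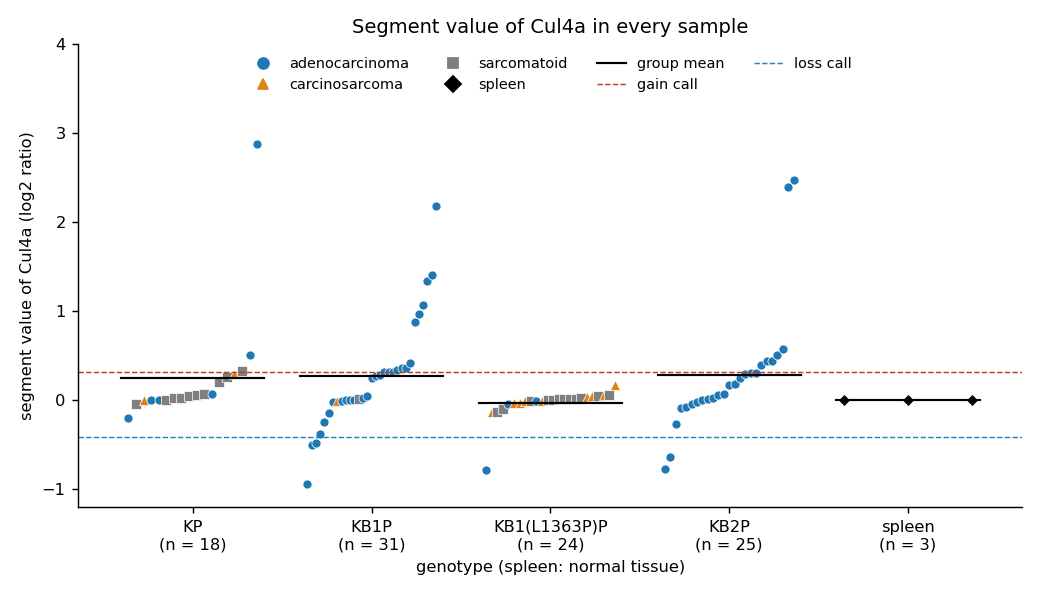
Segment value of Cul4a (vertical axis, log2 ratio) in each of 98 tumours and 3 spleens, by genotype, with histology as symbol, group means as black lines and the call thresholds dashed. Values of 2.39 to 2.88 in 3 adenocarcinomas stand far above the other KP and KB2P tumours, KB1P holds a graded upper end up to 2.19, and no KB1(L1363P)P tumour reaches the gain line.

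Library series and title groups moved with these counts in part. Within KB1P the gain was called in 1 of 10 tumours of library series 5289, 3 of 8 of series 2766 and 5 of 11 of series D. By title it was called in 6 of 10 tumours titled KB1PM and 5 of 20 titled KB1P, and a member at high level was found in 3 of each. Series 5289 held 20 of the 24 KB1(L1363P)P tumours, with 0 gains, and 3 KP tumours, with 1 gain. KB2P shared no series with the other genotypes, and its count was 4 of 20 in series 3196 and 3 of 5 in series 3499. The part of the series and of the titles in the genotype counts was not tested.

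High-level gain, taken as a segment value of at least 1, reached at least 1 of the 10 genes in 9 tumours, all of them adenocarcinomas. KP replicate 7 was the highest, with a segment value of 2.88 and a copy score of 15 at Cul4a. At Cul4a, KB2P replicates 10 and 12 followed at 2.48 (score 11) and 2.39 (score 10), while over any of the 10 genes KB1P replicate 16 came second. In KP replicate 7 and KB2P replicates 10 and 12 the first gene fully at the top level was the predicted Gm15352 at 13.02 Mb. It was singled out after its values were seen, and the top segment held Cul4a through Gas6. Mcf2l, just before it, had intermediate values of 2.55, 1.15 and 1.29. The step there was from 2.21 to 2.88 in KP replicate 7, within a stretch already at high level. In the alike KB2P pair it was from -0.17 to 2.48 and from 0.19 to 2.39. Efnb2 was far lower in the same tumours, at 0.49, -0.12 and 0.21. KP replicate 7 also had a separate high-level stretch before the 10 genes, at 2.74 from 3.10 to 3.75 Mb and 2.30 from 3.85 to 4.54 Mb. In KB1P, 6 tumours had a member at high level, and among them the level sat differently. KB1P replicate 16 had 2.70 at Efnb2, 2.19 at Cul4a and 2.68 from Lamp1 to Gas6. Replicate 14 fell from 1.98 at Efnb2 to 1.41 at Cul4a, replicate 24 from 1.24 to 1.07, and replicate 23 was even at 1.34 throughout. In replicate 21 Efnb2 alone was high, at 1.30, while the other 9 genes were at 0.00. Some of these KB1P tumours were higher outside the 10 genes. Replicate 21 reached 1.53 from 3.10 to 5.12 Mb, and replicate 29, at 1.47 from Lamp1 to Gas6, reached 2.24 from 20.9 to 22.1 Mb. Without KB2P replicates 10 and 12 no KB2P tumour had a member at high level, and 7 tumours remained in all.

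The stretch at high level in the largest number of these tumours began just after Cul4a. It ran from Lamp1 to Gas6 (13159161 to 13494535, 13 placed genes with Grtp1 and Tfdp1 among them) and was at 1 or more in 8 of the 9 tumours, or 7 of 8 with 1 of the alike KB2P pair left out. Cul4a, which ends just before Lamp1 begins, was at 1 or more in 7 of the 9. The difference is a single tumour, KB1P replicate 29. There Cul4a had a segment value of 0.32 and a copy score of 2, while Lamp1, Grtp1, Tfdp1 and Gas6 stood at 1.47. The unsegmented log2 ratio changed most at the same place, from 0.32 at Cul4a to 1.16 at Lamp1 and 1.39 at Grtp1. A smaller rise came before it, from -0.03 at F7 to 0.23 at Pcid2. Although gains here are often named for Cul4a, the most shared part of these profiles started at Lamp1, and this 1 tumour decides that. Cul4a ends 11.2 kb before Lamp1 starts, less than 1 bin of 20 kb, so the border cannot be placed exactly between these 2 genes.

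**Figure D2:**
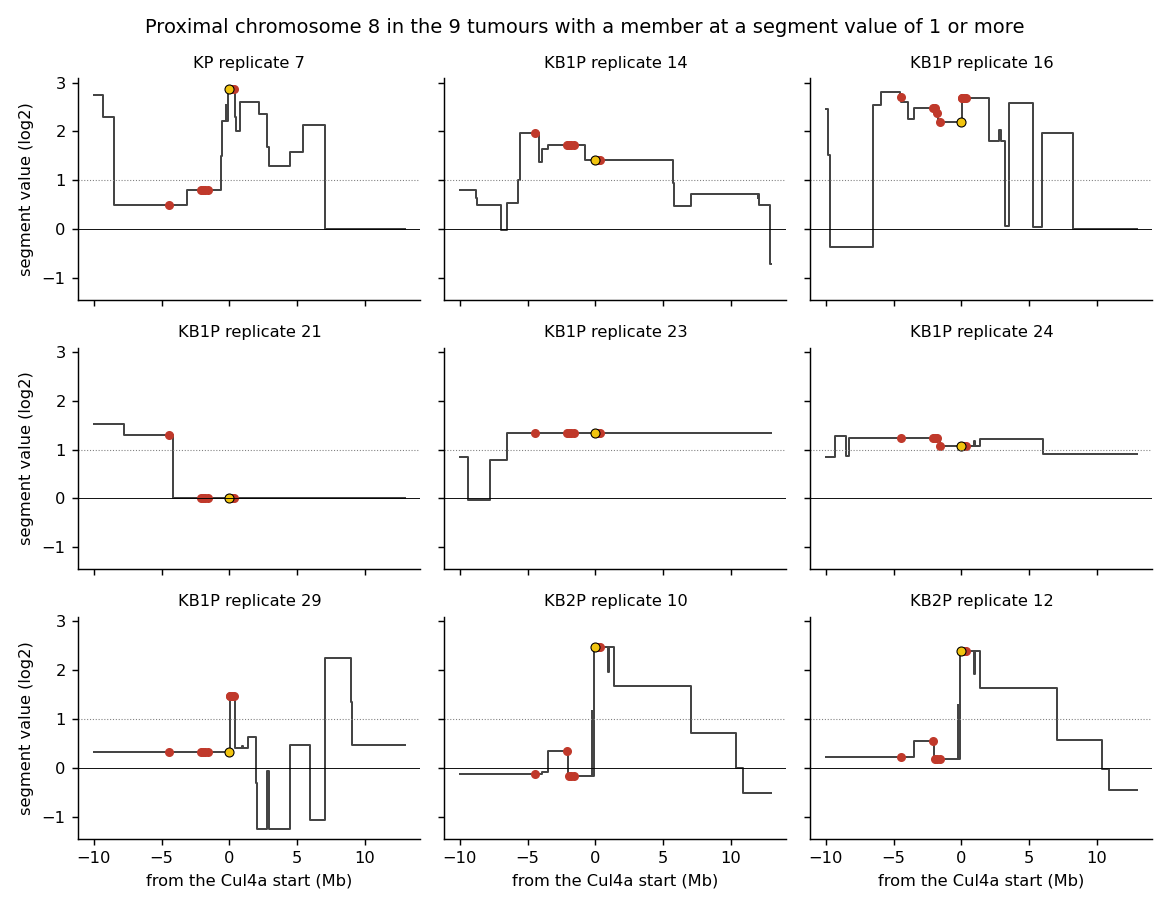
Segment value (log2) along proximal chromosome 8 in the 9 tumours with a member at 1 or more (dotted line), against distance from the Cul4a start in Mb, with the 10 genes as red points and Cul4a in yellow. KP replicate 7 and KB2P replicates 10 and 12 rise steeply just before Cul4a, KB1P replicate 29 rises only after it to 1.47, and KB1P replicate 21 is high on the Efnb2 side alone.

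Lamp1 and Grtp1 had the same segment value in all 98 tumours and could not be distinguished. Both were gained in 22 tumours, 3 KP, 12 KB1P and 7 KB2P, which is Cul4a's count plus KB1P replicate 29. Tfdp1, the E2F partner, had the same gain calls as Lamp1. Gas6 had these too and was also lost in 7 tumours, against 6 for Lamp1, because in KB2P replicate 2 the value fell from 0.03 at Lamp1 through -0.34 at Tfdp1 to -0.71 at Gas6. Tfdp1 held the intermediate value, so in that tumour the break fell at Tfdp1, before Gas6. The 4 genes averaged 0.21 over all tumours, and each reached a segment value of at least 1 in 8 of them.

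The other end of the stretch had a different set of gains. Efnb2, the Eph receptor ligand, was gained in 21 tumours, as many as Cul4a, but these were 2 KP, 14 KB1P and 5 KB2P tumours. In KB1P replicates 18, 19 and 21 Efnb2 alone was gained, at 0.91, 0.51 and 1.30, and Cul4a stood at -0.51, -0.38 and 0.00. The reverse held in KP replicate 2, where Efnb2 was at 0.11 and Cul4a at 0.51, and in the alike KB2P pair. Efnb2 and Cul4a were in different call states in 7 tumours and had a Pearson correlation of 0.62 over the 98 tumours, as a description of neighbouring genes that share most of their segments. Irs2, the insulin receptor adaptor, was gained in 3 KP, 11 KB1P and 7 KB2P tumours. The alike KB2P pair had it at 0.34 and 0.55 on a short segment of its own, without the collagen genes. Col4a1, Col4a2 and Ing1 were each gained in 19 tumours, 3 KP, 11 KB1P and 5 KB2P.

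Col4a1 and Col4a2 had the same call state in all 98 tumours, and their segment values differed in 3. In KB2P replicate 16 Col4a1 was at -0.94 and Col4a2 at -0.60, between neutral neighbours, Irs2 at 0.01 and Ing1 at 0.06. In KB2P replicate 3 Col4a1 was at -0.07 and Col4a2 at 0.31, and in KB1P replicate 16 they stood at 2.48 and 2.38. A gene that spans a change of segment holds an intermediate value in these files, so such breaks fall within the bodies of these genes and not between their shared starts.

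Most tumours carried the whole stretch as a unit. All 10 genes had a single segment value in 84 of 98 tumours and a single call state in 88. At least 1 member was gained in 25 tumours (3 KP, 15 KB1P and 7 KB2P), all 10 were gained in 18, and all 10 were lost in 5. The 10 tumours with mixed states were KP replicate 2, KB1P replicates 18, 19, 21 and 29, and KB2P replicates 2, 3, 10, 12 and 16, all adenocarcinomas. The largest ranges across the 10 genes within a tumour were 2.64 in KB2P replicate 10 and 2.39 in KP replicate 7.

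**Figure D3:**
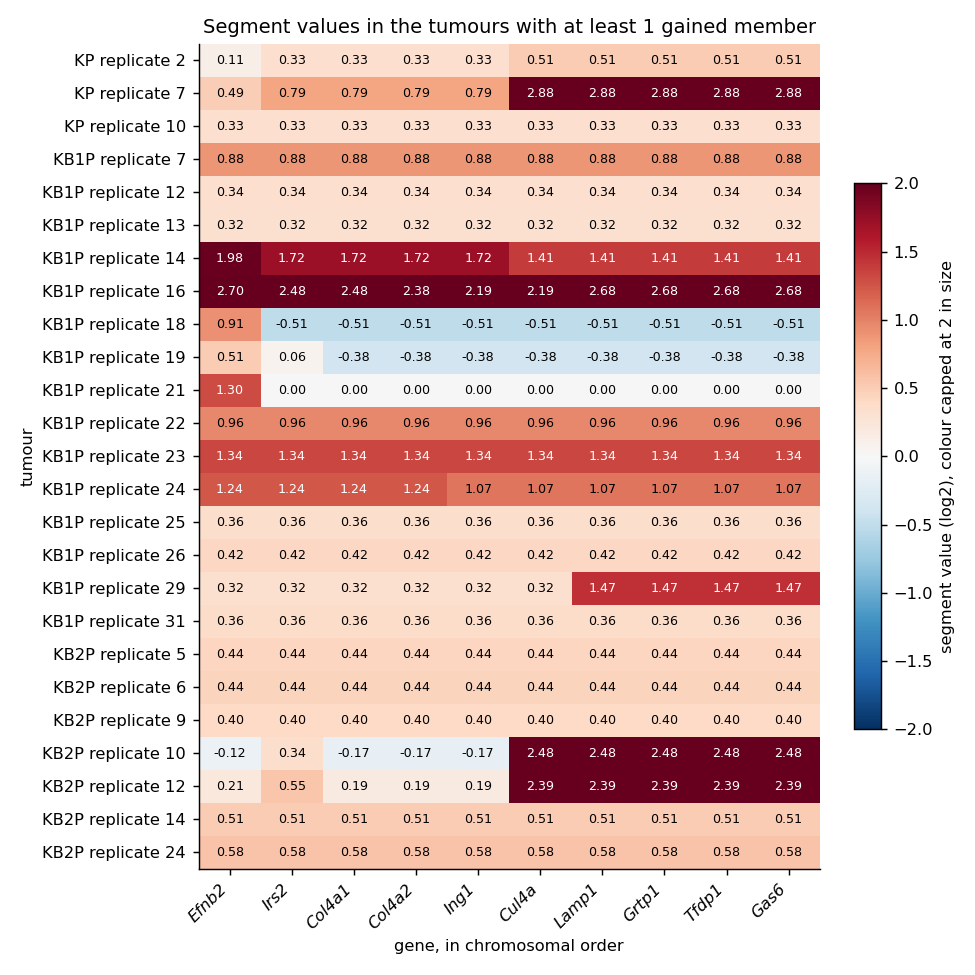
Segment values (log2, printed in each cell; colour capped at 2 in size) of the 10 genes, in chromosomal order, in the 25 tumours with at least 1 gained member. In most rows the colour is even across the genes, while KP replicate 7 and KB2P replicates 10 and 12 change between Ing1 and Cul4a, KB1P replicate 29 between Cul4a and Lamp1, and KB1P replicates 18, 19 and 21 just after Efnb2.

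The gained stretch usually reached well past the 10 genes. In 16 of the 25 tumours it ran from the first placed gene of the chromosome, and its far end lay between 8.71 and 129 Mb, with a median of 26.0 Mb. In 13 of the 25 it ended by 27 Mb, and only the sarcomatoid KP replicate 10 was gained to the last placed gene. The shortest stretches that included Cul4a were those of KP replicate 2, from 9.13 Mb to the end of Gas6 at 13.5 Mb, and of KB2P replicate 5, from 8.08 to 15.9 Mb.

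Where gain peaked on chromosome 8 differed by genotype, by number of tumours. In KP the peak of 3 of 18 tumours covered 70 genes from 9.13 to 13.5 Mb and included 9 of the 10 genes, all but Efnb2. Both borders are those of KP replicate 2 alone. KP replicate 7 was gained from 3.10 to 19.4 Mb and KP replicate 10 along the whole chromosome. In KB1P the most tumours, 15 of 31, were gained at the very start of the placed map, from Gm18210 to Arhgef18 at 3.10 to 3.46 Mb. Insr, the insulin receptor gene, lies there, and was also gained in 15. In KB2P the peak of 9 of 25 tumours lay at 22.5 to 23.4 Mb, from Smim19 to Sfrp1, including Ikbkb and Kat6a, and the highest count within the first 20 Mb was 7, reached at Irs2, at Cul4a to Gas6 and at further runs up to 19.4 Mb. In KB1(L1363P)P no gene of the first 20 Mb was gained, and the chromosome's peak was 1 tumour at 27.6 to 28.2 Mb. By mean segment value the KB2P peak moved to 13.1 to 13.3 Mb (0.28, Cul4a, Lamp1 and Grtp1 included). Without the alike pair the KB2P peak by mean was 0.14 at the single gene Gm5117 at 31.7 Mb, and by number of tumours it was 8 of 23 at 27.4 to 27.8 Mb, with no member in either. The KP peak by mean lay at 13.0 to 13.5 Mb, at 0.25, and without KP replicate 7 the KP mean at Cul4a was 0.10. Over all tumours the most gains, 22, were shared by several short runs between 9.97 and 18.3 Mb. Lamp1 to Gas6 was among them, and by mean the peak was Lamp1 to Tmco3, at 0.21. Without KB2P replicates 10 and 12 the peak by number moved to 3.10 to 8.71 Mb, where 21 of 96 tumours were gained and Efnb2 was the 1 member included, and by mean it moved to 3.10 to 3.28 Mb (0.17), with no member.

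**Figure D4:**
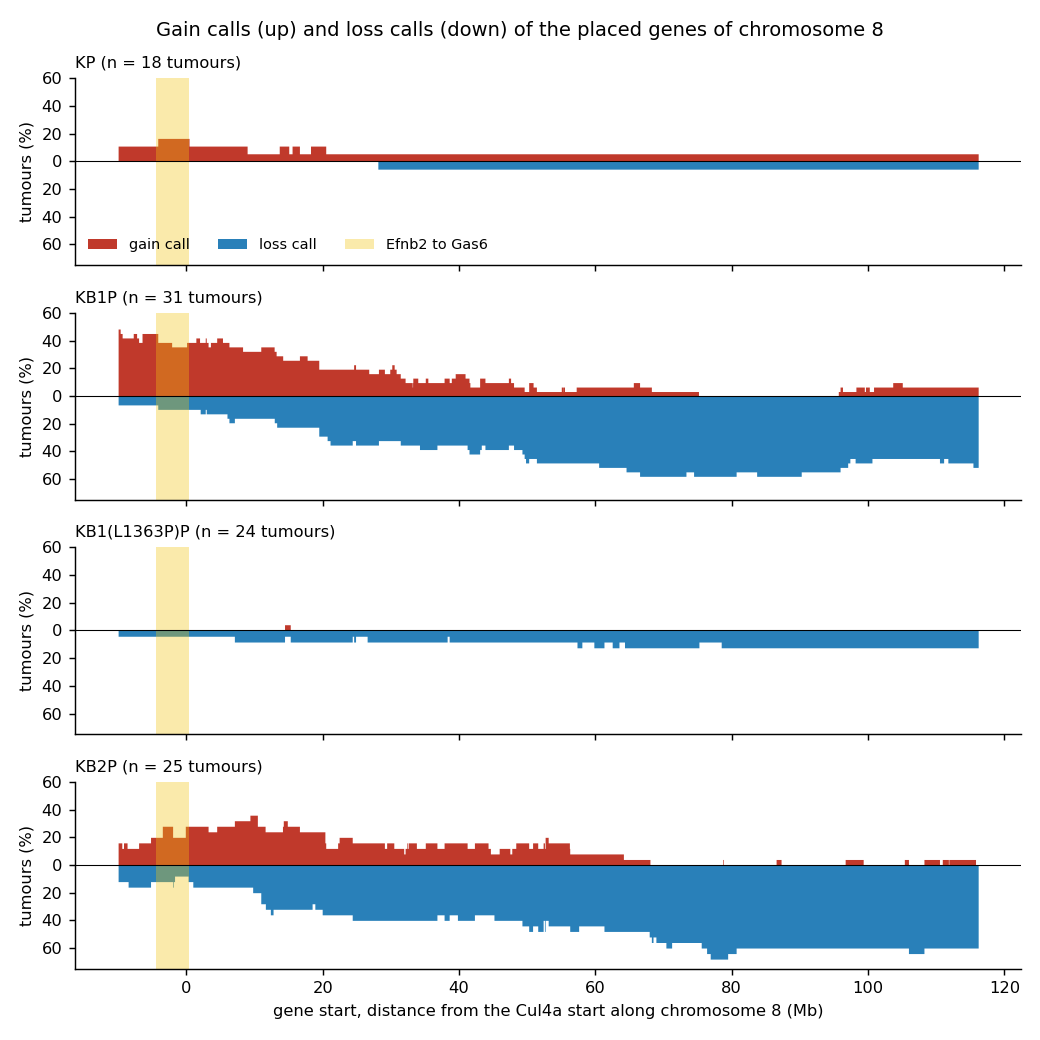
Percent of tumours with a gain call (up, red) and a loss call (down, blue) at each placed gene of chromosome 8, by distance from the Cul4a start in Mb, with Efnb2 to Gas6 shaded. Gains crowd the proximal end and losses the distal part in KB1P and KB2P, whereas KP and KB1(L1363P)P show few calls of either kind.

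Landmark genes show the turn from gain to loss along the chromosome. In KB1P, Csmd1 at 15.9 Mb was gained in 13 tumours and lost in 3, Fgfr1 in 11 and 5, Dlc1 in 6 and 11, and Rbl2 in 0 and 18. In KB2P the same genes were gained and lost in 7 and 4, 6 and 9, 5 and 9, and 0 and 17 tumours. Cul4a, at 11 gains and 3 losses in KB1P and 7 and 2 in KB2P, lay on the gained side in both. Rbl2, a relative of the retinoblastoma protein, was the most often lost landmark, in 38 of 98 tumours.

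Gain of Cul4a was often found together with loss of the distal chromosome, which was also frequent without it. Loss of the rest was called where at least 50% of the 1431 placed genes beyond 20 Mb were lost, which held for 35 tumours: 1 KP, 17 KB1P, 3 KB1(L1363P)P and 14 KB2P. Of the 21 tumours with gain of Cul4a, 13 had lost the rest, namely 1 of 3 KP, 8 of 11 KB1P and 4 of 7 KB2P tumours. Without the alike KB2P pair this was 2 of 5 KB2P tumours. Among tumours without gain of Cul4a, the rest was lost in 0 of 15 KP, 9 of 20 KB1P, 3 of 24 KB1(L1363P)P and 10 of 18 KB2P tumours. With the alike pair counted, the share in KB2P was thus about the same with and without the gain. Without the pair it was smaller with the gain, at 2 of 5 against 10 of 18. In KB1P the share was larger with the gain. The 8 KB1P tumours include replicate 13, which was close to both limits. Its Cul4a stood at 0.323, and 51.1% of its genes beyond 20 Mb were lost, with a mean of 0.03 there. Whether gain and distal loss go together was not tested. KP replicate 7 joined the highest Cul4a value to a mean of -0.64 beyond 20 Mb, with 82.5% of genes there lost. In KB1P replicate 14 Cul4a was at 1.41 and the rest at -0.63, in KB1P replicate 7 at 0.88 and -0.48, and in KB2P replicate 14 at 0.51 and -0.58. In 6 other gained tumours the rest was mixed or neutral, and in 2, KP replicate 10 and KB1P replicate 25, it was gained as well. KB1P replicate 25 had its rest higher than Cul4a, at 0.55 against 0.36.

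Where the distal chromosome was lost, the 10 genes were usually above it. Among the 35 tumours with the rest lost, Cul4a was gained in 13, neutral in 16 and lost in 6. The mean of the 10 genes exceeded that of the rest by over 0.2 in 27 of the 35, that is in 12 of 17 KB1P, 12 of 14 KB2P, 2 of 3 KB1(L1363P)P and 1 of 1 KP tumours. Among the 22 of these tumours without a gain of Cul4a the excess was above 0.2 in 14, all of them among the 16 with Cul4a neutral. KB1P replicate 15 had the 10 genes at -0.02 with the rest at -0.69, and KB1P replicate 17 had them at 0.01 with the rest at -0.46. Over all tumours of a genotype the excess was above 0.2 in 18 of 31 KB1P, 20 of 25 KB2P, 3 of 18 KP and 2 of 24 KB1(L1363P)P tumours. The margin of 0.2 was chosen after the values were seen. Because the 35 tumours were picked by their distal loss, a neutral stretch outside the lost part also lies above it. The excess therefore does not by itself set these genes apart, and other stretches were not compared. In KB1(L1363P)P the adenocarcinoma replicate 19 kept Cul4a at 0.00 beside a rest of -0.85, and the carcinosarcoma replicate 17 kept it at 0.06 beside -0.47. By contrast, in the adenocarcinoma replicate 7 the whole chromosome was low, with Cul4a at -0.78 and the rest at -0.77. Replicates 7 and 19 each share a mouse number with a sarcomatoid tumour in which Cul4a stood at 0.02 and 0.05 and no gene beyond 20 Mb was lost.

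The level of the stretch, taken as the mean of the 10 genes, was set against the mean segment value beyond 20 Mb within each genotype. How the gain combines with distal loss was part of why the genes were chosen, so these correlations are a description, with no p. Where chromosome 8 carried a single segment the 2 means are the same number, which held in 14 of 18 KP, 7 of 31 KB1P, 16 of 24 KB1(L1363P)P and 2 of 25 KB2P tumours. In KB1P Pearson r was 0.11 and Spearman rho 0.20 (n = 31). Leaving out the 2 tumours farthest from the median level, replicates 16 and 14, gave r = 0.38. In KB2P r was 0.32 and rho 0.43 (n = 25), and without replicates 10 and 12, the 2 farthest there, r was 0.63 (n = 23). In KP r was -0.64 and rho 0.39 (n = 18), and r was 0.87 without replicates 7 and 2, where most tumours set a single segment against itself. In KB1(L1363P)P r was 0.58 and rho 0.57 (n = 24). Without replicates 7 and 11 r was 0.04 there while rho was 0.47, so the linear relation rests on those tumours and the ranks less so.

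The level of the stretch was also set against the altered share, the percent of placed genes off chromosome 8 with a score other than 2. This was tested by two-sided permutation tests with 100000 resamples, adjusted by Benjamini-Hochberg over 8 relations, the 4 with the distal chromosome included. In KB2P tumours the 2 rose together (n = 25, Pearson r = 0.63, permutation adjusted p = 0.0024; Spearman rho = 0.59, permutation adjusted p = 0.0178). The relation held without replicates 10 and 12, at r = 0.55 (n = 23, permutation adjusted p = 0.0418), and within library series 3196, at r = 0.58 (n = 20, permutation adjusted p = 0.0438), where rho was 0.45 with a permutation adjusted p of 0.127. Over the alternatives the adjusted permutation p for r ranged from 0.00104 to 0.0472. Other stretches were not set against the altered share, so whether the relation is particular to these 10 genes was not tested. In KB2P 38.1% of all symbols were gained in at least 20% of tumours. The labelled epithelial share was 100% in all 25 of these tumours, and the tumour share of the DNA was not estimated. As a description, the 7 KB2P tumours with gain of Cul4a had altered shares of 22.2% to 62.3%, with a median of 50.3%, and the other 18 had 15.9% to 56.1%, with a median of 27.4%, so the groups overlap widely. In KB1P no relation was detectable (n = 31, r = -0.01, permutation adjusted p = 0.976; rho = 0.11, permutation adjusted p = 0.615). KP gave r = 0.34 and rho = -0.07 (n = 18, permutation adjusted p = 0.169 and 0.774), and without replicates 7 and 2 r was -0.36. In KB1(L1363P)P r was -0.78 (n = 24, permutation adjusted p = 0.0472) with rho = -0.33 (permutation adjusted p = 0.192), and without replicates 7 and 11 r was -0.0059. Replicate 7, whose whole chromosome 8 was low, carried that relation's low end. Whether the relation differed between genotypes was not tested.

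**Figure D5:**
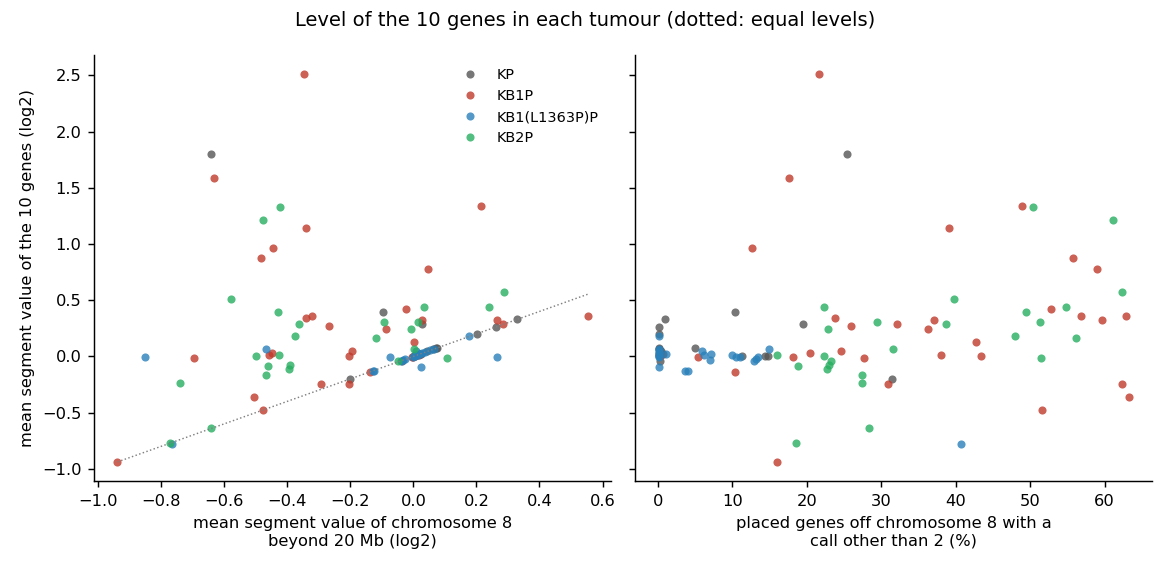
Mean segment value of the 10 genes in each tumour (vertical axis, log2), against the mean of chromosome 8 beyond 20 Mb (left, log2; the dotted line marks equal levels) and against the percent of placed genes off chromosome 8 with a call other than 2 (right), coloured by genotype. Many KB1P and KB2P tumours lie above the dotted line at negative distal values, and the KB2P points rise with the altered share (r = 0.63, n = 25).

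How far the counts reflect how often any gene was gained is shown by all 43513 symbols. In KB1P all 10 genes were gained in at least 20% of tumours (35.5% to 45.2%), as were 33.6% of all symbols, and 16.3% of symbols had as many gains as Cul4a or more. In KB2P all 10 reached that share (20% to 28%), as did 38.1% of all symbols, and 20.6% had as many gains as Cul4a or more. In KP and KB1(L1363P)P none of the 10 reached it, against 0.292% and 0.239% of all symbols. Gain was rare in KP, where 1.17% of symbols had 3 gains or more, like Cul4a. In KB1(L1363P)P the median symbol had 0 gains, as Cul4a had. A share of 10 genes on shared segments read against such backgrounds is not a result about these genes in KB1P and KB2P.

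Mean segment values were compared between genotypes with limma over all genes, and since the choice of the 10 genes drew on these contrasts the counts are given without a reading. For KB1(L1363P)P minus KB1P, limma called 13.5% of all genes at a Benjamini-Hochberg adjusted p under 0.05, and of the 10 it called Efnb2 (-0.46, SE 0.12), Irs2 (-0.34, SE 0.12), Col4a2 (-0.32, SE 0.12) and Ing1 (-0.31, SE 0.11), all lower. Cul4a was not called, with a difference of -0.30 (SE 0.15). With adenocarcinomas alone, or with library series 5289 alone, 0 of the 10 were called in this contrast, with 1 and 0 under an unadjusted p of 0.05. In each of 4 other settings 1 of the 10 was called. For KB1P minus KP (13.5% of all genes called) 0 of the 10 were called, with 1 under an unadjusted p of 0.05, and Cul4a differed by 0.02 (SE 0.17). For KB1P minus KB2P (1.36% of all genes called) 0 were called, with 2 under that p, and Efnb2 had the largest difference, 0.36 (SE 0.12). For KB1(L1363P)P minus KP limma called 0% of all genes, with 15 genes and 0 of the 10 under an unadjusted p of 0.05, and Cul4a differed by -0.28 (SE 0.18). The sides of the calls depend on scaling. Of 5886 genes called for KB1(L1363P)P minus KB1P, 1160 were higher and 4726 lower, against 2395 and 3757 after each tumour was centred on its autosomal median, and of 5872 called for KB1P minus KP, 3924 were higher and 1948 lower, against 2539 and 2569.

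Genes that act with the 10 were listed by role, most of them on other chromosomes. Over all tumours the median symbol had 9 gains and 11 losses. Of the 15 symbols in the Cul4a ligase list, 12 were measured, with medians of 12 gains and 7.5 losses. Cdkn1b, a cell cycle inhibitor degraded after ubiquitination, was gained in 36 tumours and Cdt1, the replication licensing factor and a classic target of this ligase, was lost in 33. Between KB1P and KP, Crbn (0.44, SE 0.08) and Xpc (0.41, SE 0.08) were called higher and Cand1 (-0.33, SE 0.11), which exchanges cullin adaptors, lower. All 12 genes of the E2F list were measured, with medians of 4.5 gains and 21 losses. Rbl1 had the most gains, 21, and Rbl2 the most losses, 38, and E2f4, E2f7 and Rbl2 were called lower in KB1P than in KP, the other 9 being uncalled. Against KB1P, KB1(L1363P)P had E2f4 (0.23, SE 0.08) and Rbl2 (0.34, SE 0.12) called higher, and of the ligase list Crbn, Cdkn1b and Xpc called lower. E2f4 and Rbl2 themselves lie on distal chromosome 8. Crbn, Xpc and Cdkn1b all lie on chromosome 6, as does Ing4, named below. Cand1 and E2f7 lie on chromosome 10, as does Igf1, also named below. Calls of genes on the same chromosome need not be separate observations.

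Of the 3 receptors and the related ligand of the Gas6 list, Mertk had the most gains, 8, and Axl the most losses, 16. Pros1 was called lower in KB1P than in KB2P (-0.24, SE 0.07), and higher in KB1(L1363P)P than in KB1P (0.19, SE 0.07), while between KB1P and KP limma called 0 of the 4, with 1 under an unadjusted p of 0.05. The 14 genes of collagen IV and the basement membrane had medians of 7 gains and 18 losses, with 17 gains of Col4a3 and 35 losses of Itgb1, the integrin chain on distal chromosome 8, and limma called 0 of them in each of the 4 contrasts, with 2 under an unadjusted p of 0.05 in 3 contrasts and 0 in KB1(L1363P)P minus KP. Of the 6 insulin signalling genes, Insr had the most gains (21 tumours) and Igf1 the most losses (30), and Igf1 was called lower in KB1P than in KP (-0.30, SE 0.10), and Insr lower in KB1(L1363P)P than in KB1P (-0.42, SE 0.13). Ephb4, an Efnb2 receptor, had 29 gains and Ephb2 had 21 losses, and limma called 0 of the 7 ephrin genes between KB1P and KP, with 2 under an unadjusted p of 0.05. Of the 5 ING genes, Ing4 was gained in 31 tumours and Ing2, on chromosome 8 at 47.7 Mb, lost in 25. Ing5 was called higher in KB1P than in KP (0.22, SE 0.08), and Ing4 (-0.32, SE 0.10) and Ing5 (-0.21, SE 0.07) were called lower in KB1(L1363P)P than in KB1P.

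Genes were ranked by the Pearson correlation of their segment values with those of Cul4a over the 98 tumours, as a description, since neighbours share segments. Proz and Pcid2, directly before Cul4a, had r = 1, and 52 genes from Mcf2l to 1700014L14Rik, 12.9 to 18.3 Mb, had 0.9 or more. Among the 10 genes Lamp1, Grtp1 and Tfdp1 reached 0.98 and Gas6 0.97, while Irs2 reached 0.80, Ing1 and Col4a2 0.72, Col4a1 0.71 and Efnb2 0.62. Beyond 20 Mb the highest were Gm6040, Gm15056 and AY761185 near 20.9 Mb, with 0.59. On other chromosomes the highest 5 were Gm18840, Ptms, Lrrc23, Lpcat3 and P3h3, which share a segment of chromosome 6 at 124.6 to 124.9 Mb, with 0.48. The likeness to Cul4a by r therefore dropped more between Ing1 and Cul4a, which are 1542 kb apart, than between Cul4a and Gas6. By call state it did not, since each of these 2 pairs of genes differed in 2 tumours. The largest steps between Ing1 and Cul4a were in KP replicate 7 and the alike KB2P pair. These correlations were not computed without those tumours.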

How the data were processed

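Genomic DNA libraries of 98 tumours and 3 spleens were analysed, grouped by the genotype and histology in the labels. Alignment used BWA and counting used bins of 20 kb, per the labels' protocols, and bin counts were corrected by a smooth fit on GC content and a linear model of mappability. The submitters' processing notes name cutadapt 2.5, BWA 0.7.17, SAMtools 1.10, Picard and mm10. How segments were found, what the ratios are relative to and how bins became genes is not stated in the labels read for this work, and the depth is unknown. The deposited files hold log2 ratios and segmented log2 ratios for 43513 symbols. The third deposited file holds a copy score in whole numbers, with 2 as neutral. In 99.9919% of cells it equalled 2 multiplied by the segment ratio on a linear scale, rounded. A bin-based value cannot resolve changes smaller than its bins, and a gene across a change of segment holds an intermediate value.

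The 10 genes and all gene lists were chosen with earlier results of these data known. The genes named are the 10, chromosome 8 landmarks, the neighbours of the stretch, the genes at each peak of gain, the most gained and most lost gene of each list, listed genes that limma called, and those most correlated with Cul4a. Positions came from RefSeq for GRCm38.p6: 32687 symbols were placed, 30 of them by an older symbol, and 10826 were not. Promoter sequence was matched for all 10 genes, and the stretch shown is from the same RefSeq table. High-level gain was counted for any of the 10 genes and not Cul4a alone, a choice made after the values were seen. Segment values were fitted over all genes and 98 tumours with limma 3.58.1 in R 4.3.3, with Benjamini-Hochberg adjustment over 43513 symbols. Relations used 100000 permutations drawn with NumPy 2.4.6 (exact enumeration under 10 tumours) and ranks from SciPy 1.17.1, with Python 3.11.15 and pandas 2.3.3. Both procedures were tested on simulated data. P-values measure the spread between tumours, 3 pairs of which share a mouse number.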

Additional observations from a re-analysis of the deposited data

Results flagged for a closer look

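In the 3 groups of 4 to 10 tumours of one genotype and histology, 33 sets of values were examined (11 measures a group, the 10 genes and the distal mean), and 1 tumour stood far from the others of its group, with the same value at 5 genes. In KP replicate 7, 1 of 6 KP adenocarcinomas, Cul4a, Lamp1, Grtp1, Tfdp1 and Gas6 had a segment value of 2.88, and the next highest of the 6 was 0.51. The gap to that tumour took up 0.77 of the group's whole range. The 5 genes lie on a single segment, so they are 1 observation. Chance sets apart about 1 in 20 such sets.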

How the results depend on the processing

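Of the values recomputed under alternatives, 42 of 54 counts of limma calls stayed within 1.5 times, as did 14 of 17 counts of Cul4a gain, 8 of 10 counts of gain with distal loss and 8 of 13 counts of members at a peak. Relations to the altered share kept direction and side of the threshold in 18 of 29 cases. The correlations with the distal chromosome, which are a description, changed direction in 3 of 29 cases. With adenocarcinomas only, limma called 450 genes for KB1P minus KP (main 5872), 60 for KB1P minus KB2P (main 593) and 0 for KB1(L1363P)P minus KB1P (main 5886; 1815 under an unadjusted p of 0.05), with fewer tumours in each. With library series 5289 only, it called 852 for KB1P minus KP and 3 for KB1(L1363P)P minus KP, and unsegmented log2 ratios gave 1001 for KB1P minus KB2P. Of the 10 genes, 4 were called for KB1(L1363P)P minus KB1P, against 0 with adenocarcinomas or series 5289 only, and 1 each without KB1PM titles, after centring, with unsegmented log2 ratios, and without shared mouse numbers and 1 alike KB2P tumour. In KP the correlation with the distal chromosome turned to r = 1 in its largest library series (5750), where all 10 tumours carry a single segment and the value is fixed by that, and to 0.87 without the 2 farthest tumours, in KB1P it turned to -0.17 in its largest series, and in KB2P it rose to 0.63 without the 2 farthest. For the altered share r changed sign in KP without the 2 farthest (-0.36), and in KB1P from -0.0057 to 0.093 (altered beyond 0.2), 0.036 (unsegmented), 0.014 (centred) and 0.21 (without the 2 farthest), none of them past the threshold. In KB1(L1363P)P the relation to the altered share missed the threshold at r = -0.33 (altered beyond 0.2), -0.65 (unsegmented), -0.81 (largest series), -0.75 (centred), -0.0059 (without the 2 farthest) and -0.13 (without shared mouse numbers). With a segment value of at least 0.2 as gain, Cul4a was gained in 6 KP (main 3) and 11 KB2P tumours (main 7). Without KB1PM titles, KB1P had 5 gains of Cul4a in 20 tumours (main 11 of 31), all 5 with distal loss (main 8), and without replicates 10 and 12 KB2P had 2 gains with distal loss (main 4). Members at the peak by mean segment value were 5 in KP (main 9), 3 in KB2P (main 0) and 2 over all tumours (main 4), and over all tumours without KB2P replicates 10 and 12 it was 1 by number and 0 by mean. The cause of these changes was not tested beyond the fewer tumours that some settings leave. The alternatives that left out KB1PM titles from the gain counts or both alike KB2P tumours, the means of Cul4a without its highest tumours, and the other thresholds of high-level gain, were chosen after seeing the data. At a threshold of 1.5, 2 KB1P tumours had a member at high level (main 6). No paired analysis was possible because replicate numbers follow accession order, and the 3 shared mouse numbers lie within KB1(L1363P)P and link no 2 genotypes.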
